A study of Mus musculus with 12 samples.

Results

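The effect of an Irx3 vector on the infarcted mouse heart was read from all genes of 8 left ventricle libraries, out of 12 in the series, 4 per group. Both groups were wild type C57BL/6J mice injected through the tail vein with adeno-associated virus of serotype AAV9, had myocardial infarction (MI) surgery, and were sampled 14 days after surgery. They differed in the vector, which was a control vector or one carrying Irx3. Another group of 4, control vector with sham surgery, is given only as a reference level, and the Irx3 vector was not paired with sham surgery. The promoter that drives Irx3 in the vector and the sex and age of the mice are not stated in the labels, nor is the hour of tissue collection. Polyadenylated RNA was sequenced, 1 library per sample. Nothing states that each library is a separate animal, so p-values measure the spread between these samples.

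Irx3 belongs to the Iroquois family of homeobox transcription factors. In the normal ventricle it marks the fast-conducting His-Purkinje network, where it is known to regulate connexin genes. Myocardial infarction kills muscle, draws in white blood cells and leaves a scar made by fibroblasts, while surviving muscle returns to a stressed, fetal-like pattern of genes.

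The control vector libraries held 16081360 to 18738571 counts each, and the Irx3 vector libraries 13352604 to 19236721. The labels name the cell type as cardiomyocytes, but fibroblast, endothelial and macrophage markers were present in every library. Fewer cells of a type and less RNA per cell cannot be told apart in such bulk tissue. Summed over 18 cardiomyocyte markers, normalised read counts (CPM, scaled to library size) overlapped between the groups, 39699 to 88468 with control vector and 42985 to 75623 with Irx3 vector. Replicate 4 with control vector stood apart: it had the lowest share of mitochondrial counts (0.926%) and 156 CPM of Myh1, a skeletal muscle myosin that was at most 0.431 CPM in every Irx3 vector library. Replicate 1 with Irx3 vector stood apart in matrix genes, with 3987 CPM of fibronectin (Fn1) against 201 to 987 in the other 3. Results that rest on either library are given without it.

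Irx3 itself was measured at 30.5, 27.3, 16.8 and 17.6 CPM in the control vector libraries (replicates 1 to 4, an order kept throughout) and at 314, 513, 285 and 462 CPM in the Irx3 vector libraries. Every Irx3 vector library was above every control vector library, and the log2 fold change was 4.09 (edgeR adjusted p = 1.5e-06, SE 0.25). Counts per gene cannot tell vector transcript from endogenous transcript. Of its relatives, Irx4, a ventricular muscle factor, rose from 21.1, 19.3, 18.8 and 10.5 CPM to 30.1, 55.5, 35.5 and 63.2 CPM. Irx1, Irx2 and Irx5 did not pass the test, at log2 fold changes of -0.37, 0.64 and 0.15, and Irx6 was too low to be tested.

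Across all 15742 genes tested, 3965 were higher with Irx3 vector (25.2%) and 3795 were lower (24.1%) at an edgeR adjusted p under 0.05, so that 49.3% changed. The CPM of the groups did not overlap for 22.1% of genes in the upward direction and 18.9% in the downward direction. Because so many genes passed, each count below is read against those shares. The fold changes followed the base composition of the transcripts (Spearman -0.65 across genes between log2 fold change and GC content, with genes not being independent replicates). In a GC-corrected fit, in which each library's trend with GC content was removed, 2193 of 15391 genes were higher (14.2%) and 2018 were lower (13.1%). The genes called in both fits were 1550 higher (10.1%) and 1426 lower (9.27%), and 95 genes higher in the first fit were lower in the second. GC-corrected values therefore stand beside most list counts and many of the fold changes. A fold change given alone is uncorrected, and its size can differ after the correction. Whether the base composition trend is technical was not tested. The share of counts from mitochondrially encoded genes also moved with the vector, from 2.06%, 5.64%, 2.25% and 0.926% to 10.4%, 12.6%, 12.7% and 19% (two-sided exact permutation test, p = 0.029, the smallest that 4 against 4 allows). With the mitochondrially encoded genes left out of the fit, 3933 genes were higher and 3823 lower. Any other part of this shift in the results was not tested.

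The largest falls among genes called in both fits joined scar fibroblast genes with genes induced by glucocorticoids. Angptl7, a secreted protein of mature scar fibroblasts, had the largest: 946, 619, 1163 and 2458 CPM became 23.2, 17.2, 52.0 and 6.08 CPM (log2 fold change -5.72, SE 0.64, edgeR adjusted p = 4.2e-05). The scar matrix genes Cilp2 (-3.45), Comp (-3.41) and Chad (-3.33) were in the same set of 10, as was the membrane protease St14 (-3.58). The other 5 were Fam107a (-4.61), Zbtb16 (-3.67), Map3k6 (-3.52), Ddit4 (-3.49) and Fkbp5 (-3.40). In the order named, GC-corrected values of the 10 were -5.60, -2.85, -2.64, -2.70, -3.75, -4.54, -3.29, -2.85, -2.86 and -3.16. Fam107a went from 38.2, 48.3, 34.2 and 23.5 CPM to 0.987, 1.68, 2.34 and 0.76 CPM, below the 38.8 to 61.1 CPM of sham hearts. Ddit4, an inhibitor of mTOR signalling that stress and glucocorticoids induce, went from 283 to 405 CPM to 22.1 to 33.4 CPM.

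The largest rises were Mmp12 (4.22), Irx3, the orphan receptor Gpr22 (3.97), phospholamban Pln (2.87), Rbis (2.83), the depalmitoylating enzyme Lypla1 (2.82), Rnpc3 (2.73), Pirt (2.72), the fungal receptor Clec7a of myeloid cells (2.71) and the transferrin receptor Tfrc (2.69). In the same order, their GC-corrected values were 3.21, 4.70, 2.54, 1.85, 1.64, 1.81, 1.06, 2.71, 1.76 and 1.76. Gpr22, a receptor of heart muscle and brain, was at 1.65, 3.48, 1.02 and 0.465 CPM with control vector and at 13.6, 27.2, 19.2 and 42.6 CPM with Irx3 vector. Infarction under control vector had lowered it from 6.83 to 13.1 CPM in sham hearts (log2 fold change -2.63, edgeR adjusted p = 0.0008), a comparison that uses the same control vector libraries.

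**Figure D1:**
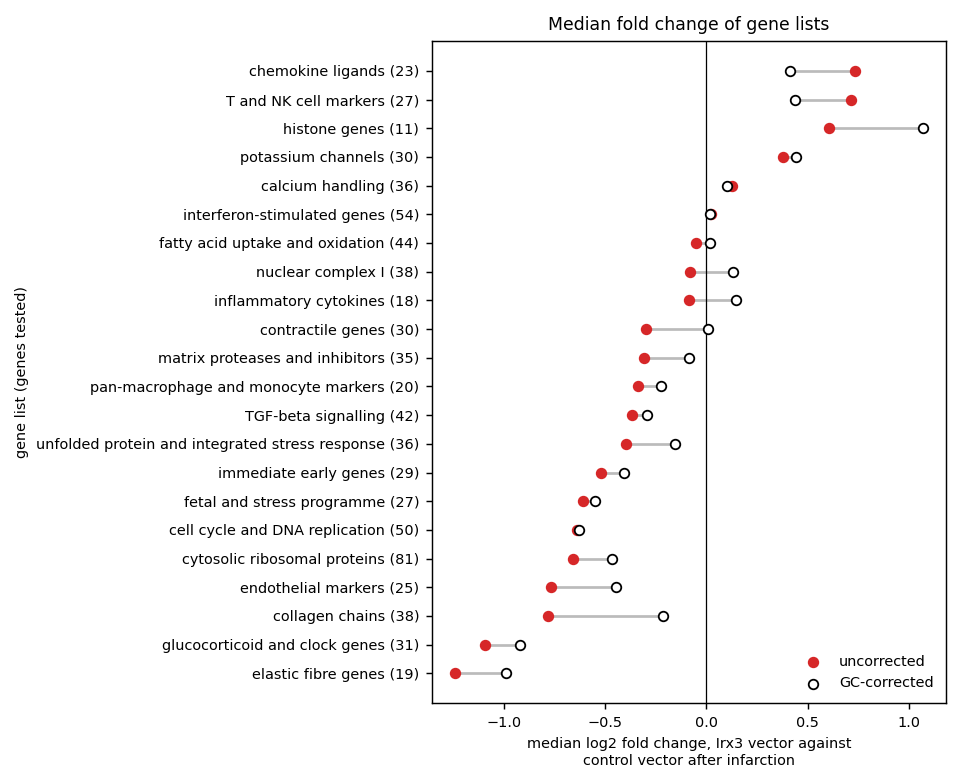
Median log2 fold change of 22 gene lists, Irx3 vector against control vector after infarction, uncorrected (filled) and GC-corrected (open), with the number of genes tested in brackets. Elastic fibre, glucocorticoid and clock genes lie furthest to the left in both fits, and chemokine ligands, T and NK cell markers and histones lie to the right of 0.

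Glucocorticoid-responsive and clock genes were mostly lower with Irx3 vector. Glucocorticoid hormone enters the cell, binds its receptor (Nr3c1) and turns on a set of target genes in almost every tissue. The circadian clock is a loop in which ARNTL (BMAL1) with CLOCK or NPAS2 switches on the Per and Cry genes, whose proteins shut the activators off. Of 31 members tested, 20 were lower and 5 higher, against 24.1% and 25.2% of all genes, and 22 were lower and 4 higher after GC correction. The list's median log2 fold change was -1.09 (-0.92 GC-corrected), beside 0.0015 over all genes (0.028 GC-corrected). Infarction against sham, which uses the same control vector libraries, raised 6 members and lowered 7, with a median of -0.07, beside 26.3% and 22.4% of all genes.

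Zbtb16, a zinc finger factor that glucocorticoids induce strongly, was at 245, 249, 187 and 197 CPM with control vector and at 12.4, 20.2, 18.6 and 17.9 CPM with Irx3 vector. Every Irx3 vector library was far below all control vector and all sham libraries, at -3.67 on the log2 scale (SE 0.18, edgeR adjusted p = 2.9e-07; -3.29 GC-corrected). Fkbp5, a chaperone that dampens the hormone receptor, went from 263, 268, 277 and 324 CPM to 25.4, 22.5, 44.6 and 14.8 CPM. Tsc22d3, which encodes the anti-inflammatory protein GILZ, fell by 2.33 on the log2 scale (SE 0.15, edgeR adjusted p = 2.6e-06, GC-corrected -2.40), from 263 to 319 CPM to 42.6 to 67.2 CPM. Klf15, a hormone-induced regulator of muscle metabolism, fell by 2.23 (SE 0.17, edgeR adjusted p = 5.8e-06), from 80.1 to 97.8 CPM to 13.5 to 23.2 CPM. The receptor gene moved the other way: Nr3c1 was at 55.4 to 65.4 CPM with control vector and at 131 to 154 CPM with Irx3 vector (log2 fold change 1.23, GC-corrected 0.45). Metallothionein Mt1, a metal-binding protein also induced by the hormone, was at 339 to 509 CPM and then at 52.9 to 81.5 CPM (log2 fold change -2.60).

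The clock genes of the list, named here after their values were seen, split by their place in the loop. The repressor genes fell: Per2 went from 124, 91.7, 97.9 and 147 CPM to 8.49, 17.9, 15.5 and 5.70 CPM (log2 fold change -3.26, GC-corrected -2.82). Per1 (-2.29), Per3 (-1.69), Cry2 (-1.23), Cry1 (-1.15) and Ciart (-1.73), all repressors, were lower in both fits. The activator genes rose: Arntl went from 4.22, 5.73, 5.01 and 4.70 CPM to 33.9, 17.1, 34.5 and 18.6 CPM (log2 fold change 2.41, GC-corrected 2.34). Npas2 rose by 2.04 (GC-corrected 2.33), and Clock by 1.04 in the uncorrected fit only (GC-corrected 0.10, edgeR adjusted p = 0.6). Bhlhe41, a separate repressor of the same promoters, rose by 1.25. For none of Per1, Per2, Cry2, Arntl and Npas2 did the groups overlap. Not every output of the loop moved: Nr1d1, whose protein represses Arntl, was at 54.6 to 125 CPM with control vector and at 61.0 to 117 CPM with Irx3 vector (log2 fold change -0.04, edgeR adjusted p = 0.92). Dbp, an activator driven by the clock, stood at -0.74 (edgeR adjusted p = 0.11), with 49.1 CPM in replicate 2 against 13 to 19.6 CPM in the other 3 Irx3 vector libraries; without replicate 2 it fell by 1.35 (edgeR adjusted p = 0.0015).

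**Figure D2:**
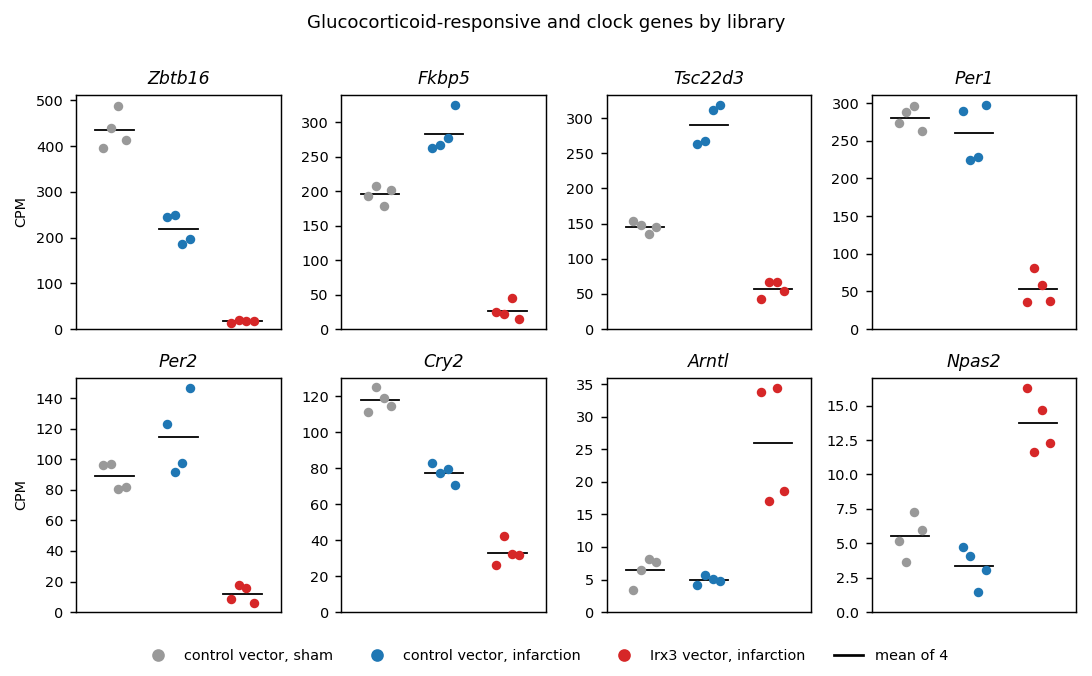
Normalised read counts (CPM, axis from 0) of 8 glucocorticoid-responsive and clock genes in each of the 12 libraries, with the mean of each group of 4 as a line. Zbtb16, Fkbp5, Tsc22d3, Per1, Per2 and Cry2 lie below all other libraries with Irx3 vector, while Arntl and Npas2 lie above them.

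The site that ARNTL dimers bind is the E-box, CACGTG, and promoter stretches that hold it are shown for 3 repressors that fell and for Bhlhe41, which rose. They are RefSeq sequences on build GRCm38.p6, whereas the counts come from build GRCm39, and capitals mark each CACGTG. Per1 is read from chr11:69098743-69098828 on the plus strand, and Cry1 from chr10:85185069-85185154, Ciart from chr3:95882241-95882326 and Bhlhe41 from chr6:145865528-145865613, all on the minus strand, each just before the annotated start.
Per1: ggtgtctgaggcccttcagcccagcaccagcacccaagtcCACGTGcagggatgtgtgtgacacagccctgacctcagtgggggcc
Cry1: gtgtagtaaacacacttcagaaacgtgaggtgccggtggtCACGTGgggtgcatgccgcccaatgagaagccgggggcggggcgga
Ciart: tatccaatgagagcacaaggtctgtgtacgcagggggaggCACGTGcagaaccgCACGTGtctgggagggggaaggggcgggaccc
Bhlhe41: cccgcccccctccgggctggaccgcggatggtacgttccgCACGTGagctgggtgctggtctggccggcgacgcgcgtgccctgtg
Among clock genes of the list with a promoter in the table, 5 of 16 hold the motif within 300 bases around the start, against 7.24% of 27025 promoters and 9.97% of those of genes tested. Tef is the member of these 5 that is not shown. Per2, Per3, Cry2, Arntl and Npas2 are not among the 5, and whether the motif goes with the direction of change was not tested. The motif that Iroquois proteins bind, ACANNTGT, is in 3.86% of promoters of genes tested, in 3.12% of those called higher and in 3.90% of those called lower, and in none of the 16. Both motifs read the same on either strand and share letters, so that 1 stretch can hold both. A match describes letters and not binding.

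Of 44 genes of fatty acid uptake and oxidation, 11 were lower and 1 higher (8 lower GC-corrected), with a median of -0.05, so that the lower share was near the 24.1% of all genes. Angptl4, an inhibitor of lipoprotein lipase, went from 69.0, 54.2, 37.0 and 77.9 CPM to 17.8, 6.37, 7.68 and 4.71 CPM (log2 fold change -2.69, SE 0.37, edgeR adjusted p = 0.00013). Pdk4, which blocks glucose entry to the citric acid cycle, was at 1724, 2500, 1309 and 717 CPM and then at 173, 237, 202 and 475 CPM, with no overlap (log2 fold change -2.53, GC-corrected -2.95). Sham hearts held 3065 to 4299 CPM of Pdk4. The carnitine transferase Cpt1a (-0.98) was lower in both fits. Ppargc1a, a coactivator of mitochondrial genes, fell by 1.63 (edgeR adjusted p = 0.013), but without replicate 2 of control vector, which held 443 CPM against 42.0 to 206 in the other 3, it stood at -1.0 (edgeR adjusted p = 0.054). Nuclear genes of respiratory complex I gave 6 higher and 4 lower of 38, below the shares of all genes, and 1 and 1 after GC correction.

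Inflammatory genes did not move as a block. Among 23 chemokine ligands 8 were higher and 1 lower (5 higher GC-corrected, and 5 without replicate 1 of control vector), with a median of 0.74. Ccl2 and Ccl7, which draw monocytes through CCR2, were both low and rose: Ccl2 from 2.42, 0.915, 1.42 and 3.51 CPM to 8.10, 6.46, 12.4 and 8.89 CPM (log2 fold change 2.1, SE 0.46, edgeR adjusted p = 0.0023, GC-corrected 1.51). Ccl7 rose by 2.79 (SE 0.53, edgeR adjusted p = 0.00089) and Ccl6 by 1.28. Cxcl9, which draws T cells, rose by 2.26 (edgeR adjusted p = 0.0024, GC-corrected 1.62). Ccl5 fell by 2.21 only through replicate 4 of control vector, at 35.9 CPM against 3.60 to 4.38 in the other 3; without it the value was -0.63 (edgeR adjusted p = 0.14), and without replicate 2 of Irx3 vector it also missed the test (-2.0, edgeR adjusted p = 0.054).

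Of 18 cytokine genes tested 3 were higher and 3 lower (3 and 2 GC-corrected). Each uncorrected share was 16.7%, below the 25.2% and 24.1% of all genes. Tnfsf10, which encodes the death ligand TRAIL, went from 8.44, 12.8, 7.91 and 3.41 CPM to 25.9, 41.9, 82.0 and 31.1 CPM (log2 fold change 2.48). Lif, a cytokine of the interleukin 6 family, rose by 1.82, and Il34, a ligand of the macrophage growth receptor, fell by 1.26 from 12.6 to 16.6 CPM to 5.02 to 8.12 CPM. The classical inflammatory genes gave no call: Il1b stood at 0.89 (edgeR adjusted p = 0.34), Tnf at 0.97 (edgeR adjusted p = 0.21) and Nlrp3 at 0.18 (edgeR adjusted p = 0.75), and Il6 was too low to be tested. Il1b was called higher without replicate 4 of control vector (2.21, edgeR adjusted p = 0.023) and took the opposite sign without replicate 1 of Irx3 vector (-0.15). Of 40 genes of NF-kB and inflammasome signalling 7 were higher (4 without replicate 3 of Irx3 vector) and 11 lower (3 and 5 GC-corrected). The uncorrected shares were 17.5% and 27.5%, beside 25.2% and 24.1% of all genes, and both GC-corrected shares were below the 14.2% and 13.1% of all genes. Nfkbia, the inhibitor that NF-kB itself induces and that glucocorticoids also raise, went from 110, 89.1, 114 and 160 CPM to 31.6, 34.2, 32.5 and 24.5 CPM (log2 fold change -1.95, SE 0.17, edgeR adjusted p = 1.2e-05). Nfkb1 fell by 0.64 (GC-corrected -1.11).

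Among 54 interferon-stimulated genes, 8 were higher and 10 lower with Irx3 vector, below the shares of all genes, and 3 were lower after GC correction. Without replicate 3 of Irx3 vector 28 were lower and 5 higher, and without replicate 4 of control vector 5 were higher. Ifitm3, an antiviral membrane protein, fell by 1.22 (GC-corrected -0.97). T and NK cell markers were low in all libraries, with 6 of 27 higher (5 GC-corrected, and 13 without replicate 4 of control vector), close to the 25.2% of all genes. None was lower by edgeR, with 1 at an unadjusted p under 0.05 and 1 called by DESeq2. Gzma, a granule protease of killer cells, was at 0.309, 0.488, 0.399 and 0.413 CPM with control vector and at 1.53, 2.97, 2.29 and 5.85 CPM with Irx3 vector, and had no count in sham hearts. The T cell gene Cd3e stood at 1.10 (edgeR adjusted p = 0.088) and at 0.58 GC-corrected (edgeR adjusted p = 0.43). Without replicate 4 of control vector Cd3e was called higher (1.45, edgeR adjusted p = 0.047). Cd3g (0.72, edgeR adjusted p = 0.31, GC-corrected -0.41) and Cd3d (-0.16, edgeR adjusted p = 0.82) did not pass. The summed list overlapped, at 47.9 to 98.4 CPM and 61.3 to 90.6 CPM.

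Single macrophage genes were called in both directions. Of 20 markers of macrophages and monocytes in general, 7 were lower (35%) and 2 higher (10%), beside 24.1% and 25.2% of all genes. After GC correction 2 were lower and 1 higher, both below the 13.1% and 14.2% of all genes. The uncorrected lower count was 2 without replicate 4 of control vector or without replicates 2 or 4 of Irx3 vector. Cd68 did not pass (-0.45, edgeR adjusted p = 0.33). Mertk, the receptor for engulfing dead cells, fell from 39.3, 38.4, 35.7 and 48.3 CPM to 22.9, 15.2, 24.6 and 10.9 CPM (log2 fold change -1.13, GC-corrected -1.21). The chemokine receptors Cx3cr1 (1.5) and Ccr2 (2.1) were higher, Ccr2 in the uncorrected fit only (GC-corrected 0.91, edgeR adjusted p = 0.14). Of 16 resident macrophage markers 4 were higher and 3 lower (3 and 3 GC-corrected), near the shares of all genes. The lower ones included Stab1, a scavenger receptor, at 382 to 818 CPM with control vector and 146 to 251 CPM with Irx3 vector (log2 fold change -1.52, GC-corrected -0.88), and Gas6, a ligand of Mertk (-1.42, GC-corrected -0.81). Timd4 and Vsig4, named after their values were seen, were under 4 CPM in every library and rose by 2.42 and 2.04. The growth factor Igf1 rose from 14.2 to 22.6 CPM to 41.7 to 92.0 CPM in the uncorrected fit (log2 fold change 1.81, GC-corrected 0.54, edgeR adjusted p = 0.14). Among neutrophil genes, Il1r2 was 17.2 CPM in replicate 4 of control vector and at most 1.68 CPM in the other 7 libraries, and its fall of 2.94 became -0.80 without that library (edgeR adjusted p = 0.32); it also missed the test without replicates 2, 3 or 4 of Irx3 vector (edgeR adjusted p = 0.068, 0.066 and 0.062).

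**Figure D3:**
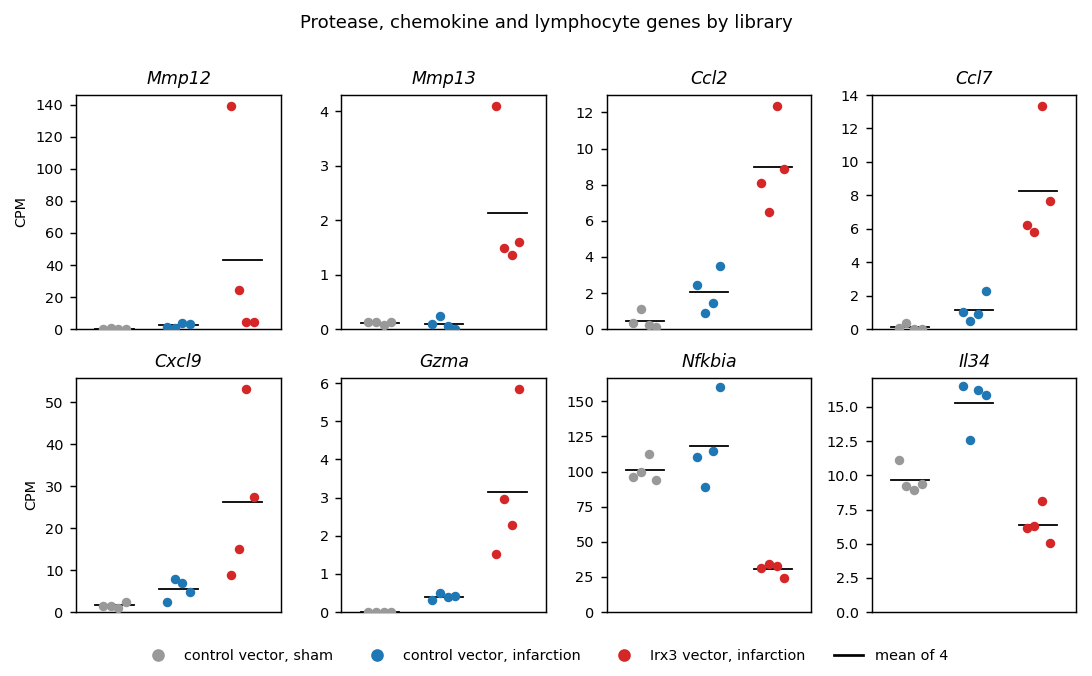
Normalised read counts (CPM, axis from 0) of matrix protease, chemokine, lymphocyte and cytokine genes in each of the 12 libraries, with group means as lines. Mmp12 is carried by 1 Irx3 vector library at 139 CPM, whereas Nfkbia and Il34 lie below all control vector libraries in each Irx3 vector library.

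Transforming growth factor beta (TGF-beta) drives scar formation; cells secrete it bound to latency proteins (LTBPs), and freed ligand induces target genes such as Ccn2. Of 42 genes of this pathway 19 were lower and 8 higher (13 and 4 GC-corrected), with a median of -0.37. Among ligands, Tgfb2 rose from 24.9, 23.4, 36.2 and 31.6 CPM to 62.9, 86.3, 80.0 and 67.4 CPM (log2 fold change 1.35, SE 0.17, edgeR adjusted p = 6.8e-05). Tgfb1 (-0.25, edgeR adjusted p = 0.2) and Tgfb3 (-0.29, edgeR adjusted p = 0.52) did not pass. The latency proteins Ltbp4 (-1.85), Ltbp3 (-1.69) and Ltbp1 (-0.84) fell. Ccn2, a matricellular growth factor, went from 1513, 935, 1635 and 3007 CPM to 405, 374, 422 and 235 CPM. Gdf15, a stress cytokine of the same family, went from 184, 48.7, 183 and 135 CPM to 19.4, 15.7, 20.6 and 12.4 CPM (log2 fold change -3.01, SE 0.33, edgeR adjusted p = 4e-05).

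Elastic fibre genes, which give a scar recoil, were lower for 14 of 19 and higher for 1, with a median of -1.24 (5 and 1 GC-corrected, median -0.99; 9 lower without replicate 4 of control vector). Fbln5, which links elastin to cells, fell by 1.66 (GC-corrected -1.89). Fbn2, a fibrillin of developing tissue, was the exception at 1.30, and its call ended without replicate 3 of control vector (edgeR adjusted p = 0.058) or without replicate 1 of Irx3 vector (edgeR adjusted p = 0.087). The fibrillar collagens gave no call and wide spread: Col1a1 was at 6387, 3801, 5524 and 14000 CPM with control vector and at 8080, 2044, 3494 and 742 CPM with Irx3 vector (log2 fold change -1.05, edgeR adjusted p = 0.15). Without replicate 1 of Irx3 vector Col1a1 (-1.83, edgeR adjusted p = 0.012), Col3a1 (-1.39, from -0.70) and Fn1 (-2.35, from -1.11) were called lower. Over 38 collagen chains 10 were lower, a share of 26.3% that was near the 24.1% of all genes. After GC correction 2 were higher and 2 lower, the lower share being below the 13.1% of all genes. In the uncorrected fit edgeR called 0 higher, with 0 also at an unadjusted p under 0.05 and by DESeq2. Without single libraries the lower count was 22 (replicate 1 of Irx3 vector), 5 (its replicate 2) and 6 (replicate 4 of control vector). Postn, a marker of activated fibroblasts, stood at 0.21 (edgeR adjusted p = 0.64) and at -1.25 after GC correction (edgeR adjusted p = 0.037). Acta2, actin of myofibroblasts and smooth muscle, fell by 1.24 (GC-corrected -1.19). The smooth muscle marker Cnn1 went the other way, from 4.88 to 22.4 CPM to 46.2 to 98.7 CPM (log2 fold change 2.62, GC-corrected 2.83). Myh11 (-0.89, edgeR adjusted p = 0.066) and Tagln (0.50, edgeR adjusted p = 0.44) did not pass. The fibroblast receptor Pdgfra did not pass either (-0.21). The fibroblast marker lists moved with these matrix genes: 12 of 17 resident fibroblast markers were lower (9 GC-corrected, median -1.12) and 10 of 11 matrifibrocyte markers, genes of mature scar fibroblasts (7 GC-corrected, median -1.89). In neither list did edgeR or DESeq2 call a gene higher, nor was one at an unadjusted p under 0.05. The summed resident fibroblast level was 6033 to 14150 CPM with control vector and 3104 to 5628 CPM with Irx3 vector, and its part in the matrix results was not tested.

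Single proteases that cut matrix changed in both directions. Mmp13, a collagenase, was at 0 to 0.244 CPM with control vector, 0 to 0.14 CPM in sham hearts and 4.10, 1.48, 1.36 and 1.60 CPM with Irx3 vector (log2 fold change 4.36, GC-corrected 3.59). Mmp12, the elastase of macrophages, was at 1.44, 0.427, 3.81 and 3.51 CPM and then at 139, 24.5, 4.25 and 4.41 CPM; the groups did not overlap, but without replicate 1 of Irx3 vector its log2 fold change of 4.22 became 2.27 (edgeR adjusted p = 0.031). Of the whole list of 35 proteases and inhibitors, 4 were higher (11.4%) and 11 lower (31.4%), beside 25.2% and 24.1% of all genes. After GC correction 6 were higher and 7 lower, beside 14.2% and 13.1% of all genes. Reck, a membrane inhibitor of these enzymes, fell from 42.0 to 80.0 CPM to 12.5 to 24.3 CPM, and Adamts9, which cleaves proteoglycans, fell by 1.46.

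Several ion channel genes of heart muscle were higher with Irx3 vector. In the uncorrected fit their lists were only slightly above the higher share of all genes. T-type calcium channels, which open at low voltage and are known from pacemaker and fetal muscle, were raised: Cacna1h went from 19.5, 19.6, 9.17 and 18.7 CPM to 53.0, 70.9, 48.4 and 71.4 CPM (log2 fold change 1.86, SE 0.23, edgeR adjusted p = 6.3e-05, GC-corrected 2.51). Cacna1g went from 29.6, 24.8, 22.8 and 22 CPM to 48.2, 72.0, 48.0 and 63.5 CPM (log2 fold change 1.22, GC-corrected 1.84). All Irx3 vector libraries were also above the sham range of both genes, 15.7 to 21.6 CPM and 32.7 to 39.5 CPM. Pln, which brakes the calcium pump of the sarcoplasmic reticulum, was at 51.0, 225, 104 and 15.6 CPM and then at 407, 705, 761 and 1013 CPM (log2 fold change 2.87, GC-corrected 1.85). The pump itself, Atp2a2 (0.29, edgeR adjusted p = 0.54), and the release channel Ryr2 (-0.46, edgeR adjusted p = 0.16) did not pass. Ryr2 was called lower without replicate 4 of control vector (-0.65, edgeR adjusted p = 0.019). In all, 11 of 36 calcium genes were higher and 4 lower (7 and 5 GC-corrected). The uncorrected shares were 30.6% and 11.1%, beside 25.2% and 24.1% of all genes.

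Of 30 potassium channel genes 9 were higher and 5 lower (9 and 2 GC-corrected), with a median of 0.38 and 0.44 GC-corrected. Without replicate 1 of control vector 3 were lower. The uncorrected shares were 30% and 16.7%, beside 25.2% and 24.1% of all genes, and the lower members are not named here. Kcnj14, an inward rectifier, went from 4.01, 2.01, 4.84 and 4.91 CPM to 14.2, 21.3, 13.2 and 20.9 CPM (log2 fold change 2.14, SE 0.26, edgeR adjusted p = 6.5e-05). Kcnd3, a subunit of the transient outward current, went from 8.95, 11.3, 5.24 and 5.68 CPM to 20.5, 26.8, 21.1 and 29.5 CPM, next to 21.9 to 25.4 CPM in sham hearts. Kcnj5, of the current that acetylcholine opens, rose by 1.37. Kcnd2, which the relative Irx5 is known to repress in mouse ventricle, stood at 0.36 (edgeR adjusted p = 0.31) and at -0.14 GC-corrected, and was called higher without replicate 1 of Irx3 vector (0.59, edgeR adjusted p = 0.042).

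Genes of the conduction system gave 6 higher and 3 lower of 33 (6 and 3 GC-corrected), below both shares of all genes in the uncorrected fit. Gja1, the main connexin of working muscle, rose from 157, 128, 166 and 185 CPM to 269, 377, 352 and 476 CPM in the uncorrected fit (log2 fold change 1.21, GC-corrected 0.39, edgeR adjusted p = 0.18). Gja5, the fast connexin of Purkinje fibres, fell by 0.78 in that fit (edgeR adjusted p = 0.023, GC-corrected -0.45, edgeR adjusted p = 0.18), and missed the test without replicate 1 or 4 of control vector or replicate 1 of Irx3 vector (edgeR adjusted p = 0.052, 0.064 and 0.062). The pacemaker channel Hcn4 rose by 0.98 (GC-corrected 1.55), with overlapping groups, and missed it without replicate 1 or 3 of control vector or replicate 4 of Irx3 vector (edgeR adjusted p = 0.053, 0.055 and 0.069). The sodium channel subunit Scn2b was low and fell from 1.83 to 2.96 CPM to 0.327 to 0.839 CPM (log2 fold change -2.08). Among receptors of the autonomic nerves, the muscarinic receptor Chrm2 rose by 1.44 (GC-corrected 0.61) and the beta receptor Adrb1 by 1.08 (GC-corrected 1.71), while the cyclase Adcy5 fell by 1.29 (GC-corrected -0.62).

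**Figure D4:**
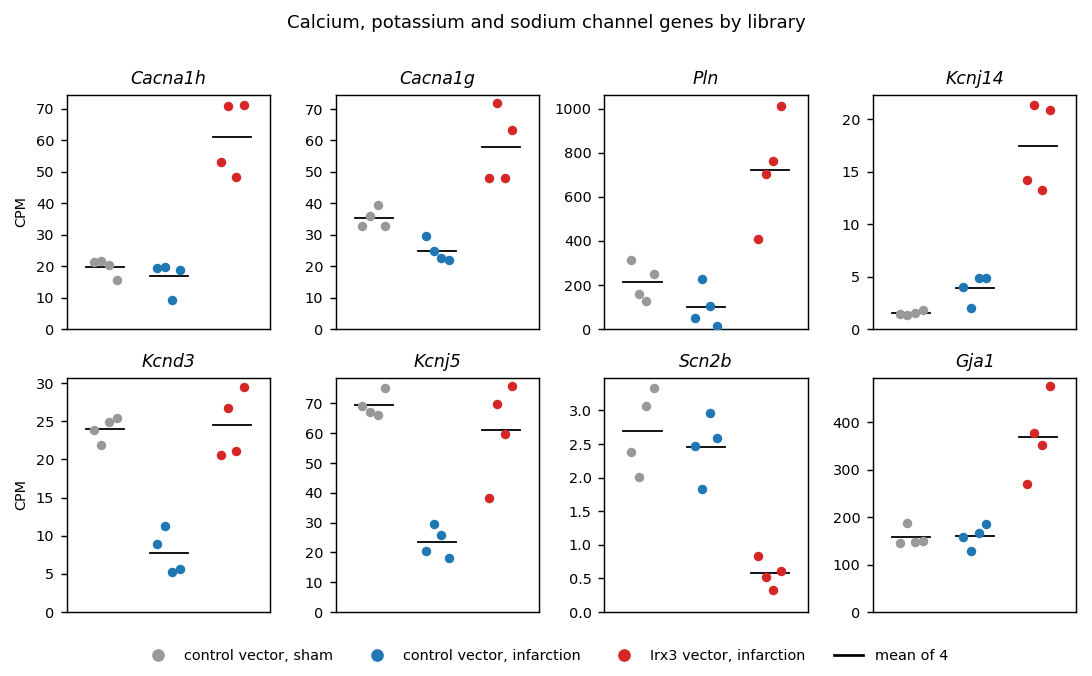
Normalised read counts (CPM, axis from 0) of calcium, potassium and sodium channel genes, phospholamban and connexin Gja1 in each of the 12 libraries, with group means as lines. Cacna1h, Cacna1g and Kcnj14 lie above both other groups with Irx3 vector, Kcnj5 and Kcnd3 lie near the sham libraries, and Scn2b lies below both.

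Contractile genes stayed near or under the background. Of 30, 3 were higher and 8 lower (3 and 2 GC-corrected; the lower count was 3 without replicate 1 of control vector, and 5 without replicate 1 or 4 of Irx3 vector). The adult myosin Myh6 (-0.18, edgeR adjusted p = 0.71) and the fetal myosin Myh7 (-0.44, edgeR adjusted p = 0.49) did not pass. Mybpc2, a myosin-binding protein of fast muscle, rose by 1.25 (GC-corrected 1.69). Other muscle genes fell: the cardiomyocyte marker Tnnt2 by 0.85 (edgeR adjusted p = 0.013), with -0.69 GC-corrected (edgeR adjusted p = 0.046). Mybpc3 (-0.86, edgeR adjusted p = 0.0076) and Tcap (-1.20, edgeR adjusted p = 0.0064) were lower in the uncorrected fit only. Their GC-corrected values were -0.31 (edgeR adjusted p = 0.31) and -0.58 (edgeR adjusted p = 0.18). The stress peptide Nppa was at 2844, 1332, 3261 and 3091 CPM and then at 600, 975, 662 and 139 CPM (log2 fold change -2.15, edgeR adjusted p = 0.015), a call lost after GC correction (-1.64, edgeR adjusted p = 0.072). Of 9 atrial markers, Nppa among them, 7 were lower (4 GC-corrected), and edgeR and DESeq2 called 0 higher, with 0 at an unadjusted p under 0.05. Their summed level was 2749 to 5099 CPM with control vector and 934 to 1954 CPM with Irx3 vector. Nppa is a large part of that sum, at 1332 to 3261 CPM with control vector and 139 to 975 CPM with Irx3 vector, so the sum is not separate from its fall. The atrial light chain Myl4 fell by 1.41 (edgeR adjusted p = 0.02; GC-corrected -1.17, edgeR adjusted p = 0.071), and stood at -0.60 without replicate 1 of control vector (edgeR adjusted p = 0.11), the library that held 20.1 CPM of it. That library also held 8.23 CPM of the atrial gene Sln, which was at 0 in every Irx3 vector library, while the defining atrial gene Myl7 was at most 0.479 CPM in all libraries. The part of atrial tissue in these falls was not tested. Nppb did not pass (-0.52, edgeR adjusted p = 0.091), except without replicate 4 of control vector (-0.67, edgeR adjusted p = 0.026). Of 27 fetal and stress genes 13 were lower (8 GC-corrected), and edgeR called 0 higher, with 0 also at an unadjusted p under 0.05 and by DESeq2. Among those lower was Fhl1, a stretch sensor, from 272 to 324 CPM to 129 to 149 CPM. Prox1, a homeobox factor of muscle and lymphatic vessels, rose from 26.1, 35.4, 26.9 and 15.2 CPM to 74.9, 108, 96.5 and 113 CPM (log2 fold change 1.92, GC-corrected 1.54).

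Endothelial genes were mostly lower. Of 25 markers 18 were lower and 4 higher (13 and 3 GC-corrected), with a median of -0.77 (-0.45 GC-corrected), and their summed level was 3136 to 4483 CPM with control vector and 2392 to 2789 CPM with Irx3 vector. Robo4, a guidance receptor of vessels, fell from 141, 117, 111 and 111 CPM to 43.6, 49.2, 43.4 and 42.0 CPM (log2 fold change -1.43, SE 0.12, edgeR adjusted p = 8.1e-06). Rgcc fell by 1.53, and Pecam1, present on all endothelium, by 0.47. The growth receptors went up instead: Aplnr, the apelin receptor, rose from 14.0, 16.3, 13 and 17.2 CPM to 90.0, 49.4, 42.4 and 62.0 CPM, and Kdr, the main receptor of VEGF, from 132, 172, 112 and 79.8 CPM to 272, 315, 207 and 370 CPM. Their log2 fold changes were 2.01 and 1.23 (2.17 and 1.28 GC-corrected). Among 40 vessel growth signals 11 were higher and 12 lower, close to the shares of all genes, with placental growth factor Pgf falling by 1.76 and the endothelial receptor Notch4 by 1.47. Hif1a, the oxygen-sensitive factor, rose by 1.59 (GC-corrected 0.71). Cytl1, an endocardial gene, fell by 2.88.

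Cytosolic ribosomal proteins fell for 53 of 81 and rose for 3, with a median of -0.66, and for 47 and 6 after GC correction, with a median of -0.47. Rpl37a was at 159, 163, 185 and 235 CPM with control vector, 79.6, 72.4, 63.5 and 72.9 CPM with Irx3 vector, and 90.2 to 125 CPM in sham hearts. Rpl38 (-1.52), Rpl37 (-1.26) and Rps28 (-1.92) fell as well. Ribosomal protein genes have many near-identical pseudogene copies, so reads may be split in counting, and Rpl23a, at 1.65, went against the rest. Of 50 genes of the cell cycle and DNA replication, 22 were lower and 4 higher (17 and 1 GC-corrected). Mcm2 and Mcm7, parts of the replication helicase, fell by 1.29 and 1.30, Mcm2 from 19.9 to 29.2 CPM to 8.62 to 13.3 CPM, which is about the sham level of 10.8 to 14.1 CPM. Cyclin D1 (Ccnd1), which starts the cycle, rose by 0.85.

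Stress response genes moved in both directions. Of 36 genes of the unfolded protein and integrated stress responses, 16 were lower and 7 higher (12 and 5 GC-corrected); the higher count was 3 without replicate 1 of either group and 4 without replicate 2 of either group or replicate 3 of control vector. Chac1, which degrades glutathione, went from 28.1, 16.3, 19.9 and 17.0 CPM to 3.60, 5.60, 3.38 and 2.13 CPM (log2 fold change -2.45), and Ppp1r15a, which restarts translation after stress, fell by 1.56. Hsp90b1, a chaperone of the endoplasmic reticulum, rose from 64.3 to 107 CPM to 207 to 265 CPM (log2 fold change 1.5, GC-corrected 0.74), and the cochaperone Dnaja1 by 1.28 (GC-corrected 0.40). Of 29 immediate early genes 13 were lower and 2 higher (11 and 6 GC-corrected), with Csrnp1 at -1.31 and the messenger RNA decay factor Zfp36 at -1.10. In the insulin-like growth factor system Igfbp5 rose from 163, 163, 122 and 161 CPM to 448, 478, 419 and 459 CPM (log2 fold change 1.57, SE 0.16, edgeR adjusted p = 2.5e-05). Igfbp2, a binding protein raised by infarction, fell by 3.82 from 0.683 to 4.27 CPM to at most 0.383 CPM, and the insulin signalling adaptor Irs2 fell by 1.80. Most messages of the histone genes copied with DNA lack a poly(A) tail, and only 11 of a list of 66 histone genes were tested. Of these 6 were higher (5 higher and 1 lower GC-corrected), among them H1f0 at 0.87, a linker histone whose message is made outside DNA replication. In the uncorrected fit none was lower by edgeR or DESeq2, with 1 at an unadjusted p under 0.05.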

How the data were processed

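The authors deposited raw counts, whole numbers per gene symbol, from reads trimmed with fastp on build GRCm39 (mm39), per the submitters' processing notes. For the aligner, counter, annotation and strand setting, names were not given in any source used here. Genes were tested with edgeR 4.0.16 (R 4.3.3), robust quasi-likelihood, TMM factors and filterByExpr, fitting all 12 libraries with a term for each group (9 residual degrees of freedom). Genes were called below 0.05 after Benjamini-Hochberg adjustment over every gene tested. CPM use TMM factors. The GC-corrected fit removed a natural spline of 6 degrees of freedom per library, with GC content from GENCODE M21 for 97.8% of genes. DESeq2 1.42.0 and other settings were tried. On simulated data of this comparison, over 15491 genes, edgeR recovered 93% of 4-fold and 53% of 2-fold changes. Only 200 genes were changed there and no GC trend was put in, whereas 49.3% of genes were called here. The simulation therefore does not show how the test does under such wide changes. No libraries within a group were duplicates.

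The comparison and lists were chosen with earlier results of these data known. Named genes are the Iroquois genes, the 10 largest rises and falls (called in both fits, not overlapping, mean log2 CPM of at least 2), up to 3 members per list with the smallest p, and 29 fixed genes. Others were chosen after their values were seen: clock genes, Pdk4, Cxcl9, Ccl5, Timd4, Vsig4, Kdr, Adrb1, Fbln5, Fbn2, Scn2b, Hcn4, Ppargc1a, Myh1, Myl4, Sln, Myl7, Rps28, Rpl23a, Ccnd1, Igfbp2, Cnn1, Myh11, Tagln, Tnnt2, Mybpc3, Tcap, Cd3d and Cd3g. Some items are not reported here.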

Additional observations from a re-analysis of the deposited data

Results flagged for a closer look

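In each infarcted group, log2 CPM (with 0.05 added) of the named genes examined one by one, total counts and the mitochondrial share gave 298 sets of 4 values. Of these sets, 15 held 1 library whose distance from the other 3 passed Dixon's 95% limit. Chance flags about 1 in 20 such sets, so the number is near what chance gives. With control vector the library that stood high was at a log2 CPM of 1.99 for Clec7a, 5.17 for Ccl5, 4.92 for Cytl1 and 7.57 for Notch4. The library that stood low was at 3.40 for Irx4, 3.66 for Il34, 10.4 for Nppa, 3.20 for Cacna1h, 4.32 for Mcm2 and 6.93 for Igfbp5. With Irx3 vector the high library was at 2.05 for Mmp13 and 1.54 for Cytl1, and the low library was at 0.982 for Timd4, 6.24 for Chrm2 and -0.035 for H3c15, a histone gene. The groups did not overlap for any of these genes except Ccl5.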

How the results depend on the processing

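The counts of 3965 genes higher and 3795 lower became 2193 and 2018 with the GC correction and 2013 and 1961 with the GC correction and without replicate 4 of both infarcted groups. They became 1703 and 1084 when a fold change above 1.5 was required, and 1573 and 1418 with the replicate block and the GC correction. Under the other settings both counts stayed within 1.5 times; leaving out each library in turn gave 3531 to 4335 higher and 3231 to 4018 lower. The Irx3 log2 fold change was 3.95 to 4.26 and the difference in mitochondrial share 9.20 to 12.1 percentage points without single libraries. The replicate numbers did not pair the libraries (residual correlations of same numbers -0.24, 0.11, -0.11 and -0.60), and with the replicate block 3503 genes were higher and 3176 lower. Among the genes examined one by one, the log2 fold changes that changed sign belonged to genes not called in the uncorrected fit. With the GC correction they were Irx1 0.29, Nr1d1 0.56, Tgfb1 0.063, Tgfb3 0.076, Postn -1.25, Myh6 0.34, Myh7 0.082 and Kcnd2 -0.14, and with the block added Irx1 0.12, Nr1d1 0.55, Tgfb1 0.065, Postn -1.37, Myh6 0.40 and Kcnd2 -0.19. Without replicate 4 of both groups they were Irx2 -0.33, Nr1d1 0.29, Tgfb3 0.16, Cd68 0.27, Atp2a2 -0.18 and Pdgfra 0.13, and with the GC correction as well Nr1d1 0.80, Tgfb1 0.26, Tgfb3 0.51, Col1a1 0.41, Col3a1 0.27, Postn -0.79, Fn1 0.20, Cd68 0.60, Myh7 0.28, Atp2a2 -0.21, Kcnd2 -0.43 and Pdgfra 0.083. Upper-quartile factors gave Nr1d1 0.016. Leaving out each library in turn gave ranges that crossed 0 for Irx2 -0.17 to 0.98, Irx5 -0.076 to 0.30, Nr1d1 -0.27 to 0.25, Postn -0.21 to 0.45, Il1b -0.15 to 2.21, Nlrp3 -0.12 to 0.56, Cd68 -0.77 to 0.11 and Myh6 -0.42 to 0.069. Of these, Postn with the GC correction and Nr1d1 at 0.80 passed the test. In the same genes, calls ended for 24 with the block and the GC correction, 19 with the GC correction and without replicate 4 of both groups, 11 with the GC correction, 16 when a fold change above 1.5 was required, 8 without the filter, 5 without replicate 4 of both groups, 4 with the block, 2 with only the 8 infarction libraries and 0 by DESeq2. The cause was not tested. Total counts of 13352604 to 19236721 per library limit the genes under about 1 CPM.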
